A study of Mus musculus with 8 samples.

Results

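The basal and suprabasal keratins of the interfollicular epidermis are described here with and without JunB, in unperturbed keratinocytes and in plucked and wounded skin. The 8 genes are Krt5 and Krt14 of the basal layer, Krt1 and Krt10 of the layers above it, and the further suprabasal keratins Krt2, Krt77, Krt78 and Krt80. They were chosen by gene symbol, and each symbol matched 1 locus in every table, out of 26457 loci (unperturbed), 47990 loci (plucked) and 46726 loci (wound). All mice were C57BL/6. Wild type animals were JunB +/+, and the JunB cKO animals, JunB -/- in the labels, carried floxed JunB and a Cre recombinase under the K14 promoter, so the deletion was aimed at basal epidermal cells and their progeny and left other skin cells with JunB. Unperturbed samples came from dorsal skin of mice 60 days old. They are titled keratinocytes in the labels, while plucked and wound samples are titled skin biopsies. The words unperturbed skin below stand for those keratinocyte samples. Plucked samples were taken 4 days after depilation, which was done at 54 days of age, and wound samples 30 days after wounding. Of 8 libraries, 4 came from wounds (2 of each genotype) and the others were single libraries of each genotype, all made from RNA pooled over 3 samples. Every table holds a single value per genotype, also for the wounds, so no difference below has a replicate check, a spread or a test. Values are FPKM, that is, fragments scaled to transcript length and to the mapped reads of a library, a unit in which levels of different genes can be set side by side within a library.

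Keratins form the intermediate filaments of epithelial cells, and each filament needs a type I and a type II keratin in equal amounts. Basal cells of the epidermis make the pair KRT5 (type II) and KRT14 (type I). When a cell leaves the basal layer it stops transcribing these genes and begins to make KRT1 (type II) and KRT10 (type I), the keratins of the spinous layer, and in some body sites further type II keratins such as KRT2 and KRT77. JunB is a subunit of the AP-1 transcription factor, which binds DNA as a dimer of Jun and Fos family proteins.

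The type II members lie in the keratin cluster of chromosome 15 and the type I members in that of chromosome 11, all on the minus strand of GRCm38. In GENCODE M21, Krt80 spans chr15:101347444-101370162, Krt5 chr15:101707070-101712898, Krt2 chr15:101810689-101818169, Krt1 chr15:101845426-101850794, Krt77 chr15:101858731-101869705 and Krt78 chr15:101946001-101954287. Krt10 spans chr11:99385254-99389364 and Krt14 chr11:100203162-100207548. The principal transcript has 9 exons in each type II member and 8 in both type I members, and the transcripts run from 1698 bp for Krt14 to 3437 bp for Krt78. Krt2, Krt1 and Krt77 are consecutive genes, with 27.3 kb between Krt2 and Krt1 and only 7.94 kb between Krt1 and Krt77.

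The 250 bases before the start site are printed for the 5 members whose RefSeq start (GRCm38.p6) lies within 20 bp of that of the principal transcript, because loss of an AP-1 subunit raises the question of AP-1 motifs next to these genes. The RefSeq start of Krt14 lies 1518 bp from that of its principal transcript and its window was not used, and Krt1 and Krt80 had no entry. Capitals mark TATANA or ATAAAA on either strand in the last 50 bases, 2 motifs chosen after the sequences had been viewed, whose matches do not overlap each other in these windows. The windows are Krt5 at chr15:101712906-101713155, Krt10 at chr11:99389365-99389614, Krt2 at chr15:101818170-101818419, Krt77 at chr15:101869706-101869955 and Krt78 at chr15:101954288-101954537, each written 5′ to 3′ on the minus strand.
Krt5: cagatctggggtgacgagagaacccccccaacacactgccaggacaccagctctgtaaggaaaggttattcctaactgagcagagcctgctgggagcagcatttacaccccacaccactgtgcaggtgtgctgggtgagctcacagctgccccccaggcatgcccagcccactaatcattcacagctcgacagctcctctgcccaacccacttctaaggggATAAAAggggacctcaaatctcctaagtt
Krt10: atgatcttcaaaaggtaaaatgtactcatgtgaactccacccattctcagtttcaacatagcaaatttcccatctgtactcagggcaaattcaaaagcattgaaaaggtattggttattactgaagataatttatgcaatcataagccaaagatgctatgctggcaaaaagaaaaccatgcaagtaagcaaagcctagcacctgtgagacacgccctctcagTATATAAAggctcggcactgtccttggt
Krt2: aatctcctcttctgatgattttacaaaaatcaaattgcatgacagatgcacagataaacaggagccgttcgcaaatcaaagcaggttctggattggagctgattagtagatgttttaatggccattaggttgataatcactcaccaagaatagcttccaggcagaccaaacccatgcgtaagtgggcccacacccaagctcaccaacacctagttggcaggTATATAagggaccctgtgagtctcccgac
Krt77: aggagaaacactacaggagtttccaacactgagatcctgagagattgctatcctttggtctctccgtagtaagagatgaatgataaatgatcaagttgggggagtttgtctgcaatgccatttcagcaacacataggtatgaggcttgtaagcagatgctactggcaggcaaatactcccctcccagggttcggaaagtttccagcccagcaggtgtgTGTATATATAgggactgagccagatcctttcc
Krt78: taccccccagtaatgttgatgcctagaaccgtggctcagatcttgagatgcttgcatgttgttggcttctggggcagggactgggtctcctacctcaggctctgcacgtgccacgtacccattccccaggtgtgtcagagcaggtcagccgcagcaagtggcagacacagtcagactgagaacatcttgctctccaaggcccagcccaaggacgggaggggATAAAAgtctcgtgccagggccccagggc

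The AP-1 motif TGANTCA, which reads the same on both strands, was in 0 of these 5 windows, against 6.75% of 32817 promoter windows of 250 bases in the RefSeq table. TATANA was in the last 50 bases of Krt10, Krt2 and Krt77, against 5.69% of all promoters. ATAAAA stood there in Krt5 and Krt78, against 4.03%. Its first base was at position -29 from the start in both genes, where a TATA-like element usually sits. These are matches of letters in a short window and say nothing of which factor was bound there or elsewhere.

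The libraries were checked before the keratins were compared. Junb itself was lower in JunB cKO in every table, at 31.4 against 268 FPKM in unperturbed skin, 11.7 against 40.8 FPKM after plucking and 15.4 against 33.4 FPKM in wounds. From the smallest values of short receptor genes, 1 FPKM over 1 kb was worth about 13.3 reads in the unperturbed wild type library and about 3.92 reads in the unperturbed cKO library, which was thus the shallower. It was worth about 10.1 reads in the plucked cKO library (from only 3 loci) and 34.1 reads in the wild type wound value. The cKO wound value gave 31.7 reads (from only 2 loci), while the plucked wild type library gave no estimate. In unperturbed skin, the fibroblast, muscle, endothelial and adipocyte marker lists each summed to under 14 FPKM in both genotypes, against 9127 and 8038 FPKM for the 8 keratinocyte markers, and these samples are labelled keratinocyte. The plucked libraries carry the same label but also the words skin biopsy, and their 6 fibroblast markers summed to 5109 FPKM in wild type and 1856 FPKM in cKO. These libraries therefore hold dermal RNA, with lower fibroblast markers in cKO, and the part of dermal RNA in the plucked differences was not tested. In all of these bulk samples, fewer cells of a layer and less RNA per cell cannot be told apart.

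In unperturbed skin most members were among the most abundant transcripts, but Krt78 ranked 1324 and Krt2 10543 in wild type. Krt77 (3875 FPKM), Krt10 (3320.4 FPKM) and Krt5 (2592 FPKM) were the most abundant members in wild type, at ranks 17, 21 and 25 of 26340 genes with a single symbol. In cKO the order changed to Krt10 (4889 FPKM), Krt5 (2690.3 FPKM) and Krt77 (2570.25 FPKM), at ranks 20, 24 and 27. The 8 genes made up 81.9% of the summed FPKM of 49 keratin genes in wild type and 82.9% in cKO. After plucking they made up 69.0% and 76.1% of 53 keratin genes, and in wounds 24.6% and 36.2%, where keratins of the hair shaft and inner root sheath made up most of the rest.

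**Figure D1:**
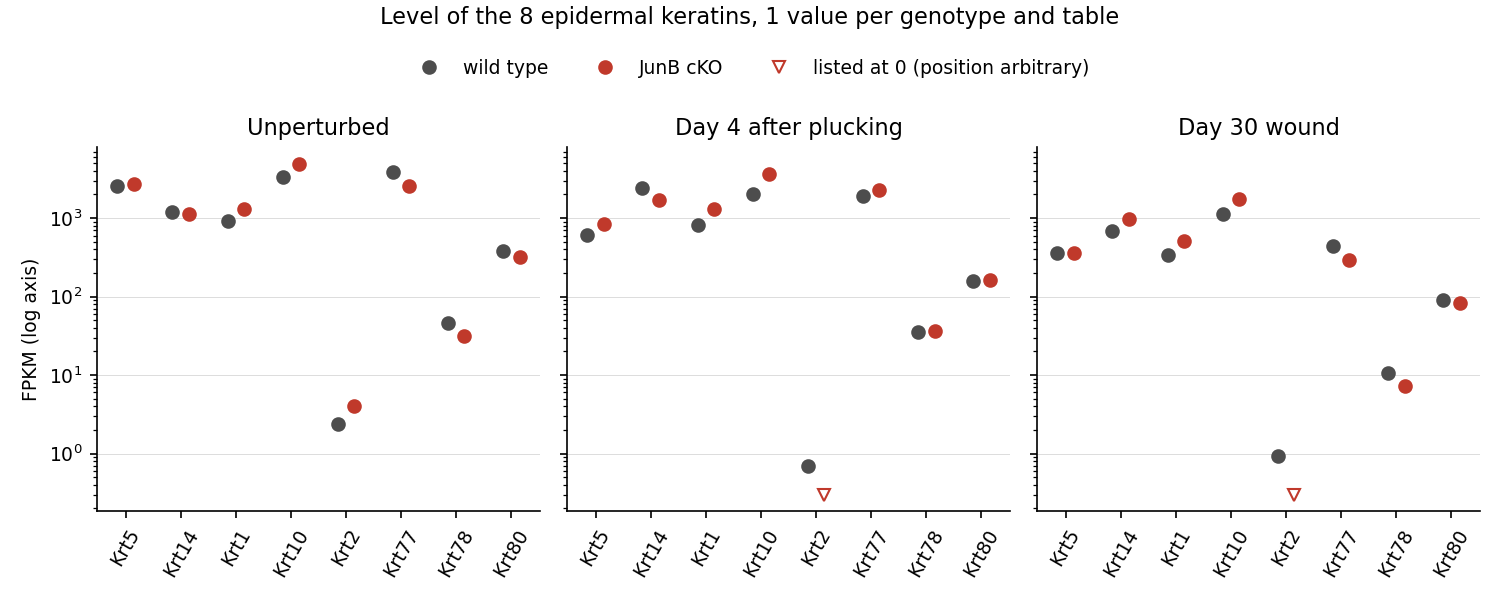
FPKM of each of the 8 keratins (log axis) in wild type (grey) and JunB cKO (red), 1 panel per table and 1 value per genotype; open triangles mark Krt2 where it is listed at 0. Krt2 is the lowest member in every panel, and the cKO point of Krt1 and of Krt10 lies above its wild type point in all 3.

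The basal keratins did not differ in one direction. Krt5, the type II keratin of basal cells, was at 2592 FPKM in wild type and 2690.3 FPKM in cKO unperturbed skin, a log2 ratio of cKO over wild type of 0.05 (here and below with 1 FPKM added to both values). After plucking it was at 614 FPKM in wild type and 845 FPKM in cKO (log2 ratio 0.46). Its wound values were 362 FPKM and 357 FPKM (log2 ratio -0.02). Krt5 as deposited was thus near equal between genotypes in 2 tables and higher in cKO in the plucked one, but relative to the shift of expressed loci in unperturbed skin, -0.17, it lay at 0.23 there.

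Krt14, the type I partner of Krt5 and the gene whose promoter drives Cre in these mice, was at 1212 FPKM in wild type and 1113 FPKM in cKO unperturbed skin (log2 ratio -0.12). It was at 2446 FPKM and 1709 FPKM after plucking (log2 ratio -0.52). Its level in wounds was 694 FPKM and 967 FPKM (log2 ratio 0.48). The gene was therefore lower in cKO after plucking and higher in cKO in wounds, and its small difference in unperturbed skin depended on scaling, since Krt14 lay at 0.05 relative to that shift.

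Although their proteins pair, the RNA of Krt5 and Krt14 did not keep a fixed ratio. Within a library, Krt5 stood at 2.14 times Krt14 in unperturbed wild type and 2.42 times in unperturbed cKO. After plucking the ratio was 0.251 in wild type and 0.495 in cKO. Wounds gave 0.521 and 0.370. Krt14 was thus the more abundant of the pair in all 4 values from plucked and wounded skin and Krt5 in both unperturbed libraries. Since the tables were normalised separately, levels were not compared across them, but a ratio within a library does not depend on that scaling. It does depend on the gene model used for each table. The deposited locus of Krt14 ended at 100207510 in the unperturbed table and at 100207548 in the plucked and wound tables. The unperturbed libraries were isolated keratinocytes by their labels, so tissue, preparation, injury and gene model cannot be told apart in this contrast.

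Krt1 and Krt10, the spinous pair, were higher in JunB cKO in each of the 3 tables. Krt1, the type II partner, was at 917 FPKM in wild type and 1309.9 FPKM in cKO unperturbed skin (log2 ratio 0.51). It was at 805 FPKM and 1298 FPKM after plucking (log2 ratio 0.69). Wounds had 343 FPKM and 512 FPKM (log2 ratio 0.58). The cKO level was thus about 1.43, 1.61 and 1.49 times that of wild type.

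Krt10, the type I partner of Krt1, was at 3320.4 FPKM in wild type and 4889 FPKM in cKO unperturbed skin (log2 ratio 0.56). It was at 2004 FPKM and 3685 FPKM after plucking (log2 ratio 0.88). In wounds it was at 1141 FPKM and 1769.5 FPKM (log2 ratio 0.63). Krt10 was the most abundant member in all 3 cKO values and in the wild type wound value. Among the 7 members with at least 10 FPKM in the higher genotype of every table, these 2 were higher in cKO in all 3 tables and 0 were lower in all 3. Of 4659 genes with that abundance, 5.02% were higher in all 3 and 21.8% were lower in all 3.

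Unlike the basal pair, Krt1 and Krt10 kept a narrow ratio. Krt1 stood at 0.277 of Krt10 in unperturbed wild type and 0.268 in cKO. After plucking the ratio was 0.402 in wild type and 0.352 in cKO, and in wounds it was 0.301 and 0.290. The difference in this ratio between genotypes was at most -0.19 on the log2 scale, whereas for Krt5 to Krt14 it was 0.18, 0.98 and -0.49.

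**Figure D2:**
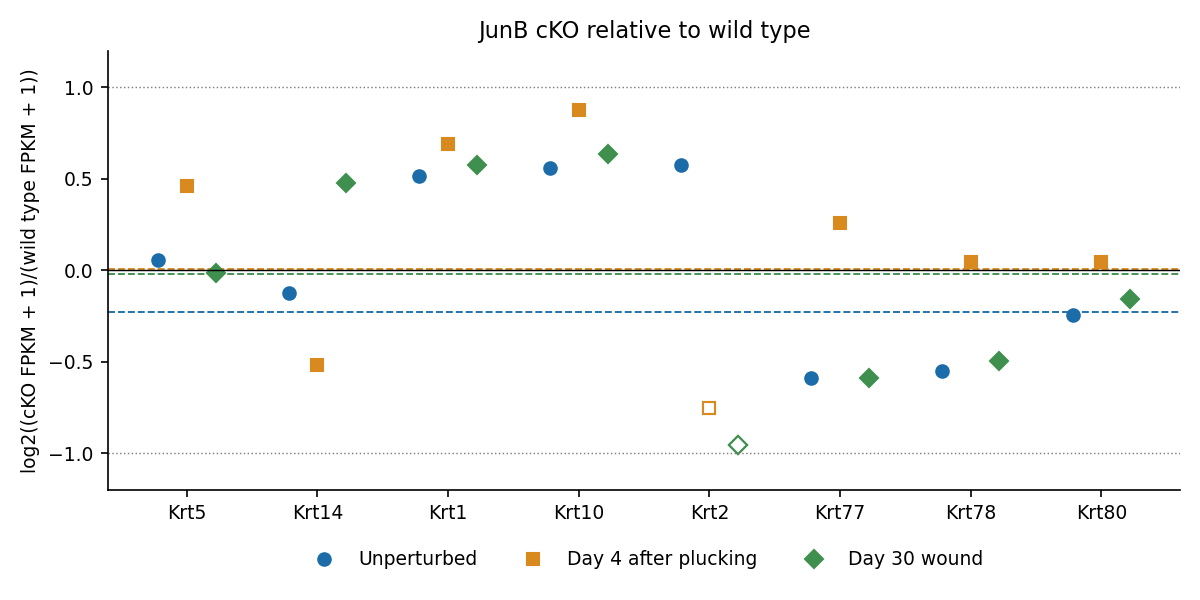
Log2 ratio of JunB cKO over wild type, with 1 FPKM added to both values, for each keratin in unperturbed skin (blue circles), 4 days after plucking (orange squares) and 30-day wounds (green diamonds). Dashed lines give each table's median over loci with at least 10 FPKM, dotted lines the 2-fold limit, and no point lies outside that limit; open symbols mark Krt2 where cKO is listed at 0 and the position is set by the pseudocount; Krt1 and Krt10 are above 0 in all 3 tables.

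The remaining suprabasal members did not follow Krt1 and Krt10. Krt77, a type II keratin of the suprabasal layers, was at 3875 FPKM in wild type and 2570.25 FPKM in cKO unperturbed skin (log2 ratio -0.59). It was at 1908 FPKM and 2280.4 FPKM after plucking (log2 ratio 0.26). The wound levels were 445 FPKM and 295 FPKM (log2 ratio -0.59). It was the member furthest below wild type in unperturbed skin and lay below wild type by the same amount in wounds, but above it after plucking.

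Krt78, a less studied type II keratin of stratified epithelia, was at 46.4 FPKM in wild type and 31.4 FPKM in cKO unperturbed skin (log2 ratio -0.55). After plucking it was at 35.5 FPKM and 36.7 FPKM (log2 ratio 0.05). In wounds it was at 10.6 FPKM and 7.20 FPKM (log2 ratio -0.50). Its values were thus lower in cKO in the tables where those of Krt77 were lower, and near equal after plucking.

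Krt80, a type II keratin tied to desmosomes and late differentiation, showed smaller differences. It was at 379 FPKM in wild type and 320.4 FPKM in cKO unperturbed skin (log2 ratio -0.24), at 158 FPKM and 163 FPKM after plucking (log2 ratio 0.04) and at 91.1 FPKM and 81.7 FPKM in wounds (log2 ratio -0.16). Relative to the shift of -0.17 in unperturbed skin, Krt80 lay at -0.07, Krt77 at -0.42 and Krt78 at -0.38, and on the same scale Krt1 lay at 0.69 and Krt10 at 0.73.

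Krt2, which in mouse marks the thick epidermis of ear, tail and footpad, was the least abundant member. It was at 2.35 FPKM in wild type and 3.99 FPKM in cKO unperturbed skin, worth about 81.8 and 40.9 reads. It was at 0.686 FPKM in plucked wild type and 0.937 FPKM in wild type wounds, and is listed at 0 in cKO in both tables. The wild type wound value was worth about 83.5 reads. The limit that 3 reads allow was 0.113 FPKM in the plucked cKO library and 0.0362 FPKM in the cKO wound value, both estimated from few receptor loci. Gapdh, which every cell uses, is listed at 0 in both unperturbed libraries, where a 0 can therefore be a failed estimate, but at 25.8 and 27.0 FPKM after plucking and 27.2 and 26.3 FPKM in wounds. Whether the 0 of Krt2 in the latter tables is of that kind was not tested, and no fold of Krt2 is given there.

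Set against Krt1 in the same library, Krt77, Krt78 and Krt80 were each lower in cKO in all 3 tables, a pattern chosen after the values had been seen. Krt77 stood at 4.22 times Krt1 in unperturbed wild type and 1.96 times in cKO. After plucking it stood at 2.37 and 1.76 times, and in wounds at 1.30 and 0.577 times. Krt80 stood at 0.414 of Krt1 in unperturbed wild type and 0.245 in cKO, at 0.198 and 0.126 after plucking, and at 0.268 and 0.161 in wounds. For Krt78 the log2 difference of this ratio between genotypes was -1.06, -0.64 and -1.07 in the same order. All 3 ratios share the Krt1 value, so they are not separate observations of it. Krt1 itself was higher in cKO in every table (log2 ratios 0.51, 0.69 and 0.58). The median over loci with at least 10 FPKM was -0.23, 0.01 and -0.02, so a locus at that median would also be lower relative to Krt1. The share of other genes with this pattern was not computed, and the pattern is not particular to these keratins on the values given. The deposited locus of Krt77 was shorter in the unperturbed table, at chr15:101859856-101869618, than in the others, at chr15:101858732-101869705. Its ratios are therefore read between genotypes of a table and not across tables.

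Suprabasal and basal keratins were then set against each other within a library, to compare the balance of spinous and basal transcripts between genotypes. Krt1 stood at 0.354 of Krt5 in unperturbed wild type and 0.487 in cKO. After plucking the ratio was 1.31 and 1.54, and in wounds it was 0.948 and 1.43. The type I ratio, Krt10 to Krt14, was 2.74 and 4.39 in unperturbed skin, 0.819 and 2.16 after plucking, and 1.64 and 1.83 in wounds. Both ratios were higher in cKO in every table, with a log2 difference between 0.15 for Krt10 to Krt14 in wounds and 1.40 for the same ratio after plucking. The summed FPKM of the 6 suprabasal members over that of Krt5 and Krt14 was 2.24 and 2.40 in unperturbed skin, 1.60 and 2.92 after plucking, and 1.92 and 2.01 in wounds. Its log2 difference between genotypes, 0.10 in unperturbed skin and 0.06 in wounds, was smaller there than that of either pair, and after plucking (0.86) it lay between those of Krt1 to Krt5 (0.23) and Krt10 to Krt14 (1.40). Lower Krt77 in cKO entered that sum in unperturbed skin and in wounds.

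**Figure D3:**
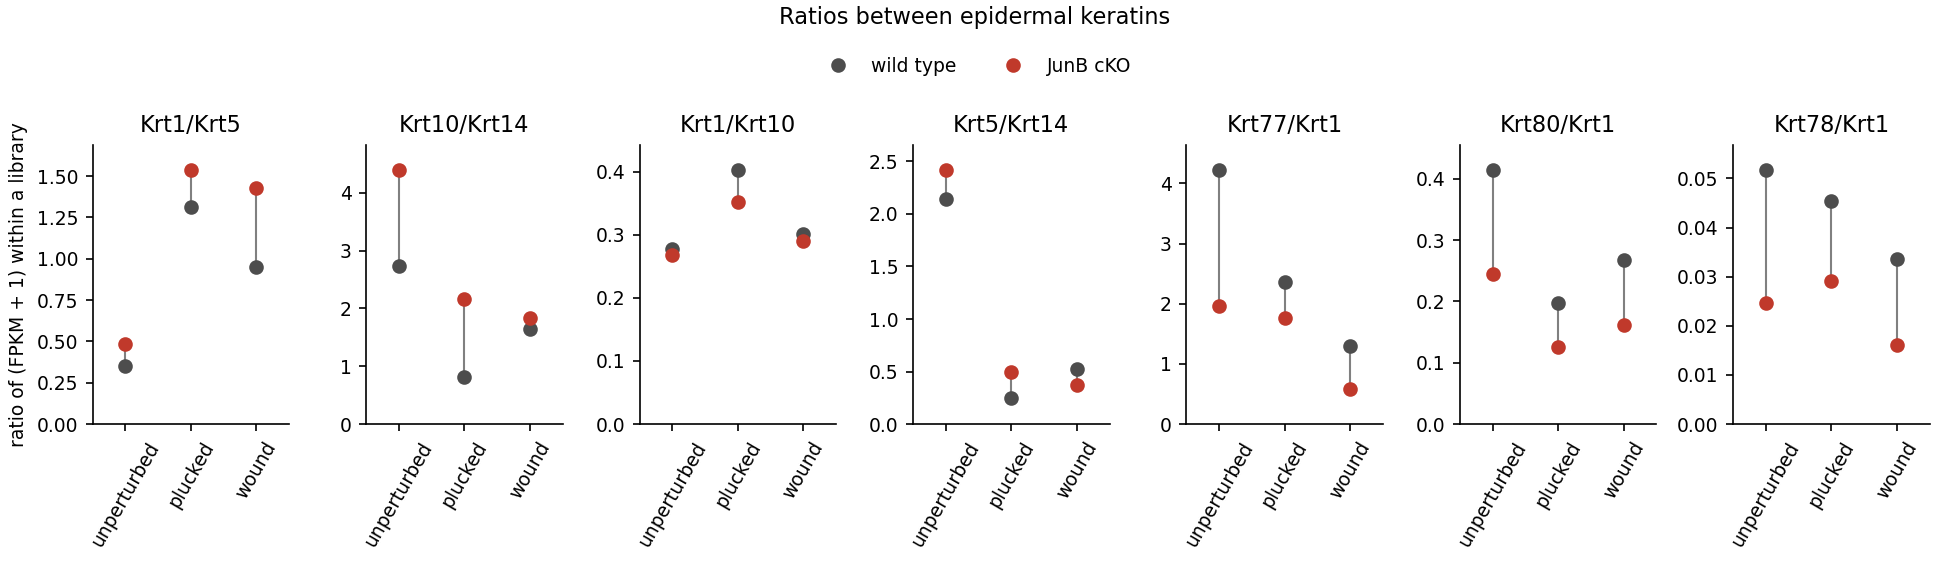
Ratios between keratins within each library, computed from FPKM + 1, for wild type (grey) and JunB cKO (red) in the 3 tables; each panel has its own linear axis from 0. Krt1/Krt5 and Krt10/Krt14 are higher in cKO in all 3 tables, and Krt1/Krt10 differs little between genotypes. The 3 ratios to Krt1 on the right are lower in cKO in all 3, where Krt1 itself is higher in cKO.

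The size of the differences was read against that of other genes. In unperturbed skin 0 of 8 members were at least 2-fold higher in cKO and 0 were at least 2-fold lower, against 9.31% and 0.858% of all loci. After plucking the counts were again 0 and 0, against 6.5% and 5.65%. In wounds they were 0 and 0, against 2.16% and 1.98%. Among loci with at least 10 FPKM, 3.46%, 25.6% and 7.44% were past 2-fold in either direction in unperturbed, plucked and wounded skin. With a limit of 1.5-fold, Krt77 passed in the lower direction in unperturbed skin and no member in the higher one, against 9.8% lower and 3.04% higher among 6386 loci with at least 10 FPKM. These unperturbed counts depended on scaling, since relative to the shift of -0.17 the 3 genes Krt1, Krt10 and Krt2 (0.75) passed in the higher direction and 0 in the lower. The share of loci past the limit on that scale was not computed, so these centred counts have no background beside them. Krt2, below 10 FPKM, is also outside the 6386 loci. After plucking Krt1 and Krt10 were at least 1.5-fold higher, against 23% of 8971 such loci, and no member with a value above 0 in both genotypes was as much lower, against 22.1%. In wounds Krt10 was at least 1.5-fold higher, against 9.59% of 8761 such loci, and Krt77 was as much lower, against 8.2%. Krt2 is left out of these 1.5-fold counts after plucking and in wounds, where its ratio is set by the pseudocount. The median log2 ratio of the 8 members was -0.03 in unperturbed skin, 0.15 after plucking and -0.09 in wounds. Krt2 was the lowest value in the last 2 tables at any pseudocount tried, so it does not move those medians by its size. Over loci with at least 10 FPKM the median was -0.23, 0.01 and -0.02.

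The share of all keratin RNA taken by each class was computed next, a measure added after the values had been seen. Krt1 and Krt10 together took 28.1% of the summed keratin FPKM in unperturbed wild type and 39.8% in cKO. Their share was 24.3% and 37.9% after plucking, and 11.8% and 20.7% in wounds. Krt5 and Krt14 together took 25.2% and 24.4% in unperturbed skin, 26.5% and 19.4% after plucking, and 8.41% and 12.0% in wounds. The Krt1 and Krt10 share was therefore higher in cKO in every table and the basal share was not. In wounds the keratins of the inner root sheath and companion layer took 46.8% in wild type and 36.7% in cKO and those of the hair shaft 15.3% and 11.2%, and the share of all 8 members together was larger where that of the hair keratins was smaller.

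**Figure D4:**
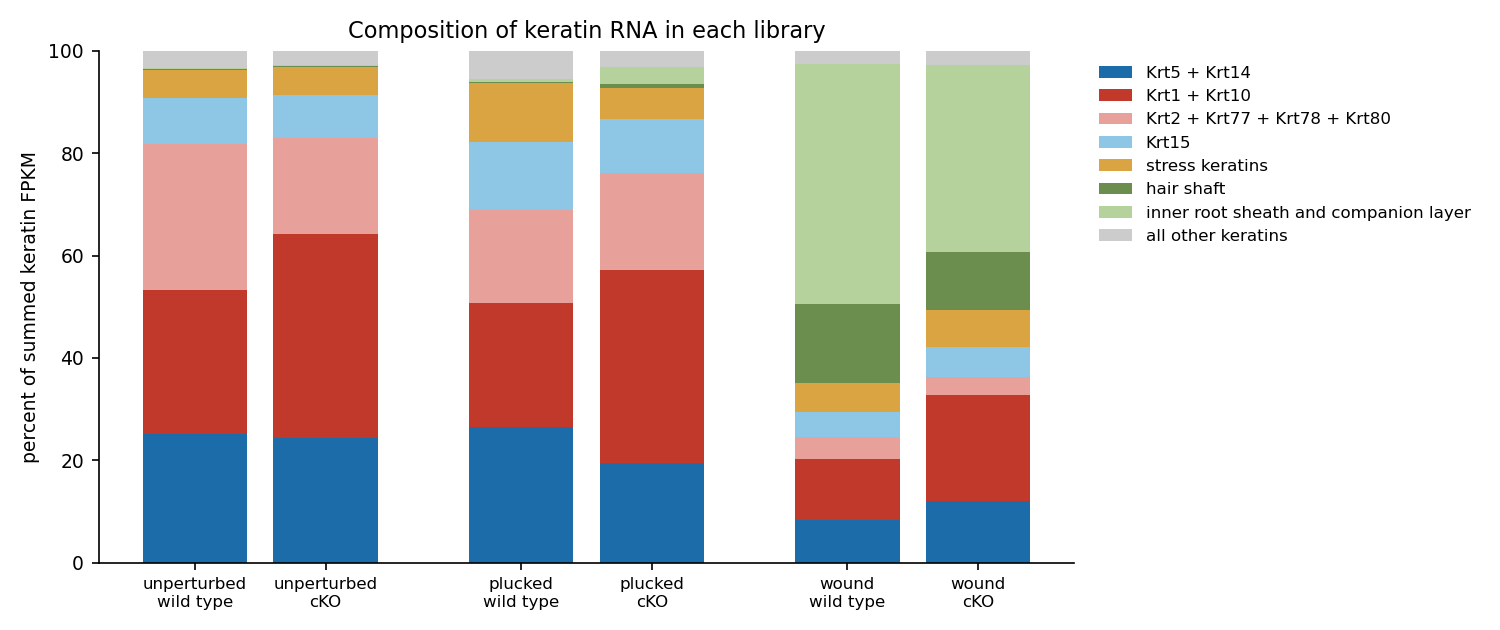
Percent of the summed keratin FPKM taken by each keratin class in the 6 values, wild type beside JunB cKO for each table. The dark red block of Krt1 and Krt10 is larger in cKO than in wild type in all 3 pairs, and the green blocks of hair keratins are tall in the wound bars only.

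Along the type II cluster, Krt1 and the adjacent Krt77 went opposite ways in unperturbed skin and in wounds, and both were higher in cKO after plucking. The consecutive inner root sheath genes Krt71, Krt72 and Krt73 were all higher in cKO after plucking and all lower in wounds (log2 ratios -0.44, -0.79 and -0.66). Krt5 lies next to Krt6a in the gene order, and Krt6a, a keratin of the hair follicle and of wounded epidermis, was at 226 FPKM in wild type and 66.2 FPKM in cKO after plucking (log2 ratio -1.76), where Krt5 was higher in cKO. Of 21 other keratins with at least 10 FPKM after plucking, 12 were at least 2-fold higher in cKO (Krt81, Krt83, Krt6b, Krt71, Krt72, Krt73, Krt25, Krt26, Krt27, Krt28, Krt33a and Krt34) and 3 were at least 2-fold lower (Krt84, Krt6a and Krt36). Of these, Krt72, Krt28 and Krt33a are listed at 0 in wild type and Krt36 at 0 in cKO, so their calls rest on the 1 FPKM added to both values. In wounds, of 29 such keratins, Krt6b was at least 2-fold higher and 4 were at least 2-fold lower (Krt26, Krt28, Krt39 and Krt32). In unperturbed skin only Krt16, of 8 such keratins, passed that limit, at 62.0 FPKM in wild type and 23.8 FPKM in cKO. Krt6b was higher in cKO in each table, at 9.65 against 1.95 FPKM, 59.2 against 7.90 FPKM and 17.3 against 3.44 FPKM. Krt6a and Krt6b are near-identical copies, and Krt5 and Krt14 share stretches with Krt6 and with Krt16 and Krt17. How reads that match several keratin genes were assigned is not given in the sources used here, so the split among them is uncertain.

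**Figure D5:**
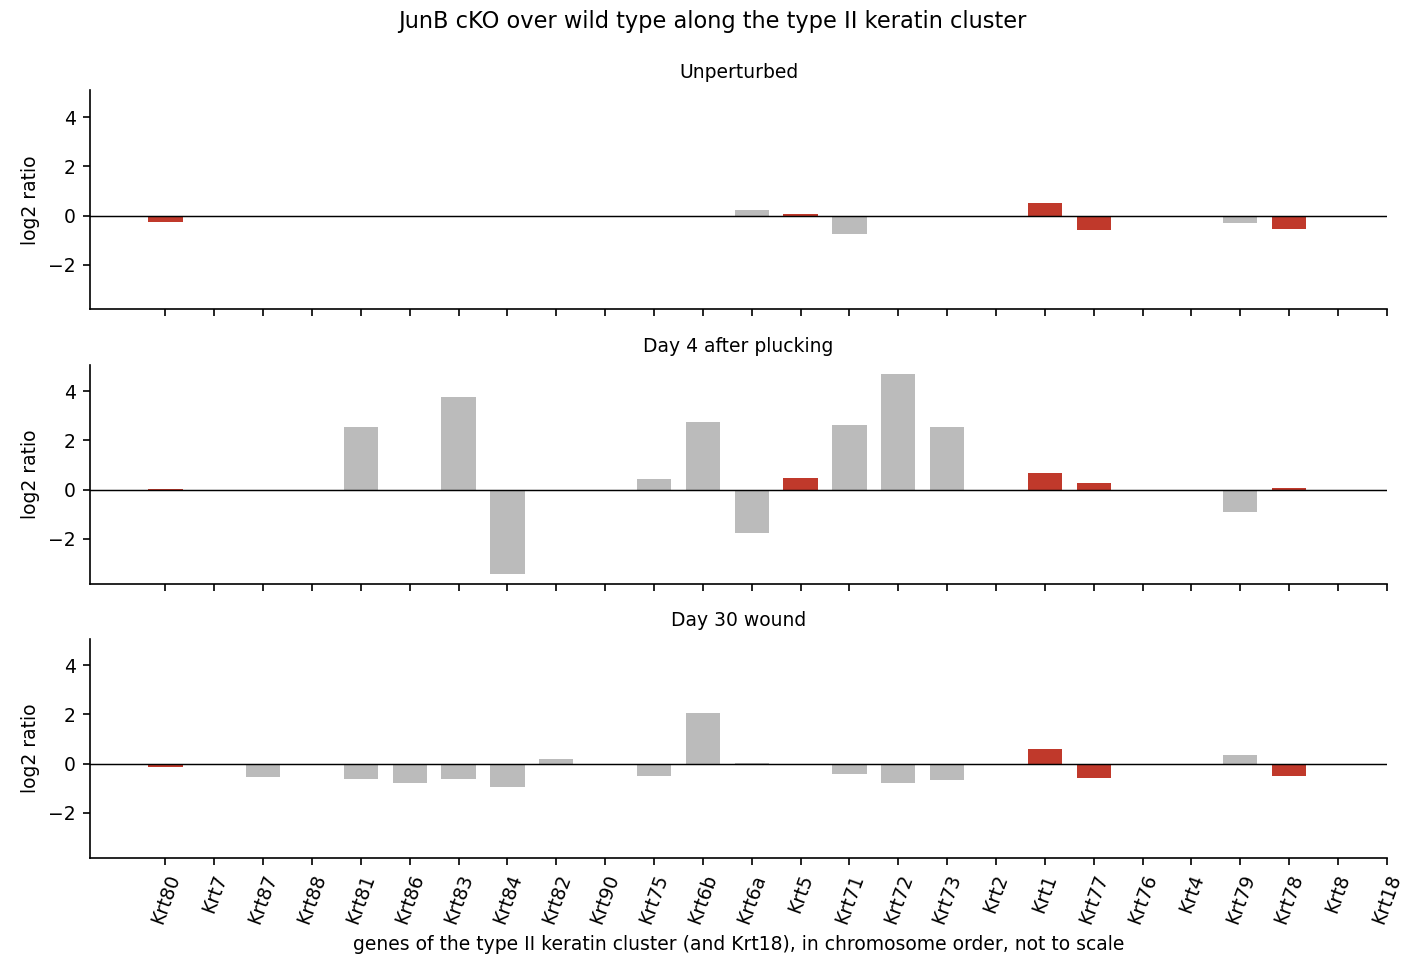
Log2 ratio of JunB cKO over wild type (FPKM + 1) for the keratin genes on chromosome 15 in gene order, with at least 10 FPKM in either genotype; members in red, other keratins in grey, 1 panel per table on a common axis. The bars of the members stay within 1 log2 unit, and the large bars after plucking belong to Krt6b and to hair keratins such as Krt71, Krt73 and Krt72, the last listed at 0 in wild type so that its height is set by the pseudocount.

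The genes around the keratins in the epidermal programme were read from fixed lists, beside the medians over loci with at least 10 FPKM given above. Counts and medians cover every measured gene of a list, while the highest and lowest genes are named among those with at least 10 FPKM in either genotype. Of 9 genes of basal layer adhesion (such as integrins and collagen XVII), 8 were lower in cKO in unperturbed skin, with a median log2 ratio of -0.24 and Col17a1 lowest at 412 against 645 FPKM. Relative to the shift of -0.17 in that table, 6 were lower and 3 higher, with a median of -0.06. After plucking 7 of the 9 were higher, with a median of 0.95, and 4 were past 2-fold. In wounds 5 were higher and 4 lower (median 0.00), from Itga3 at -0.61 to Cd151 at 0.37. Most of these partners of the basal cell were thus higher in cKO after plucking, where Krt14 was lower. Their lower values in unperturbed skin depended largely on scaling, and the wound list was split, whereas Krt14 was higher in cKO in wounds.

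The 9 genes of the spinous layer other than keratins did not go the way of Krt1 and Krt10 as a group. They were higher in cKO for 2 and lower for 7 in unperturbed skin (median -0.39), from Dsg1b at -1.03 to Krtdap at 0.30. After plucking 4 were higher and 5 lower (median -0.02), from Lypd3 at -0.35 to Dmkn at 0.55. In wounds 3 were higher and 6 lower (median -0.26), from Dsc1 at -0.61 to Krtdap at 0.33. Krtdap, a secreted protein of spinous keratinocytes, was at 5447 FPKM in wild type and 6695 FPKM in cKO unperturbed skin. Its levels were 9223 and 10700 FPKM after plucking and 2158 and 2711 FPKM in wounds. It was thus higher in cKO in every table, as Krt1 and Krt10 were and as no other gene of this list was.

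Of 10 genes of the granular and cornified layer, 8 were higher in cKO in unperturbed skin (median 0.48) and 4 were past 2-fold. Lor, which encodes the cornified envelope protein loricrin, was at 47.0 FPKM in wild type and 213 FPKM in cKO, while Ivl, the gene of involucrin, was the lowest of those with at least 10 FPKM, at 103 and 113 FPKM. After plucking 9 were higher (median 0.43), and those with at least 10 FPKM ran from Hrnr at 0.25 to Cnfn at 3.20. In wounds 7 were lower (median -0.19), from Tgm3 at -1.33 to Casp14 at 0.69. Most genes of the late layer were thus higher in cKO beside Krt1 and Krt10 in 2 tables, and most were lower in wounds.

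Keratins are anchored by desmosomal and plakin proteins. In unperturbed skin all 8 measured genes of this list were lower in cKO (median -0.32), from Dst at -0.58 to Plec at -0.06. After plucking 6 of 7 were higher (median 0.26), from Dsp at -0.34 to Ppl at 0.55, and in wounds 6 of 7 were lower (median -0.19), from Ppl at -0.47 to Jup at 0.49. Of 13 regulators of epidermal differentiation, 5 were higher and 8 lower in unperturbed skin (median -0.12), 9 and 4 after plucking (median 0.12), and 8 and 5 in wounds (median 0.08). Relative to the shift in unperturbed skin, 9 regulators were higher and 4 lower there, whereas 7 of 8 keratin attachment genes and 6 of 9 spinous genes stayed lower. Cebpa, a factor of suprabasal keratinocytes, was lowest in unperturbed skin at -0.61 and highest after plucking at 0.83 and in wounds at 0.61. Notch1, which is required for the switch from basal to spinous cells, was highest of this list in unperturbed skin at 0.19. Klf4 was lowest in wounds at -0.32, and Rbpj lowest after plucking at -1.31, at 23.2 and 8.77 FPKM.

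The other keratin lists were read in the same way. Of 4 stress keratins, 3 were higher in cKO in unperturbed skin (median 0.15), 2 after plucking (median -0.39) and 4 in wounds (median 0.34). The 14 measured hair shaft keratins were higher for 11 after plucking (median 1.91) and lower for 13 in wounds (median -0.64), and in unperturbed skin they summed to only 17.8 and 17.6 FPKM. The inner root sheath and companion layer list was higher for 9 of 9 after plucking (median 2.64), lower for 9 of 9 in wounds (median -0.66), and split 4 and 4 in unperturbed skin. Simple epithelial keratins summed to under 13 FPKM in every value. Of 9 other epithelial keratins, 7 were higher in unperturbed skin (median 0.40), mostly at low levels, with 3 higher and 3 lower after plucking (median 0.00) and 3 and 5 in wounds (median -0.05). From this list, Krt15, the basal and follicle stem cell keratin, was at 1339 and 1308 FPKM in unperturbed skin, 1530.5 and 1382 FPKM after plucking and 603 and 647 FPKM in wounds, with log2 ratios between -0.15 and 0.10.

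Marker lists of other cell types differed between genotypes as well. After plucking most of these lists were lower in cKO. Fibroblast markers were lower for 6 of 6 (5109 against 1856 FPKM summed). Muscle markers were lower for 4 of 4 (119 against 13.7 FPKM, with Myl1 listed at 0 in cKO). So were 4 of 5 leukocyte markers (207 against 73.5 FPKM), 3 of 4 adipocyte markers (142 against 48.5 FPKM) and 4 of 4 sebocyte markers (1340 against 858 FPKM). Endothelial markers were higher for 2 and lower for 2 (61.3 and 45.3 FPKM summed). Melanocyte markers were higher for 3 and lower for 1 (28.2 and 46.7 FPKM). Fewer cells of a type and less of these transcripts per cell cannot be told apart. In wounds 5 of 6 fibroblast markers were higher in cKO (10532 against 13412 FPKM summed), 4 of 4 muscle markers were higher (2154 against 2489 FPKM), 3 of 4 sebocyte markers were higher (645 against 1286 FPKM) and 4 of 4 melanocyte markers were lower (199.5 against 110 FPKM). Leukocyte, adipocyte and endothelial sums in wounds were 372 and 382, 667 and 748, and 124 and 168 FPKM. In unperturbed skin 4 of 4 sebocyte markers were lower (524 against 284 FPKM), and leukocyte and melanocyte markers each summed to under 17 FPKM. Their part in the keratin differences was not tested.

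To set the members against other keratinocyte transcripts, their log2 ratios were also taken relative to the mean of the 6 keratinocyte markers that are not members, a step added after the values had been seen. That mean was -0.39 in unperturbed skin, 0.04 after plucking and -0.14 in wounds. After plucking the 6 markers ran from Dsp at -0.34 to Itga6 at 0.95, so that mean leans on a single gene. On this scale Krt1 stood at 0.91, 0.65 and 0.72, and Krt10 at 0.95, 0.84 and 0.78. Krt77 stood at -0.20, 0.22 and -0.45, and Krt14 at 0.27, -0.56 and 0.62. Krt5 stood at 0.45, 0.42 and 0.13. The direction of Krt1 and Krt10 in all 3 tables was thus the same on this scale, whereas Krt14 and Krt80 in unperturbed skin and Krt5 in wounds changed sign.

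Genes with a pattern like that of the members were sought among the 4659 genes with at least 10 FPKM in every table, as the smallest Euclidean distance over the 3 log2 ratios. Nearest to the mean of Krt1 and Krt10 (0.54, 0.78 and 0.61) were Atic at a distance of 0.14, Crip2 at 0.15, Thop1 at 0.23, Sostdc1 at 0.29 and Hist1h4h at 0.34. Krt1 and Krt10 themselves each lay 0.10 from their mean. Nearest to the mean of Krt5 and Krt14 (-0.03, -0.03 and 0.23) were 9530068E07Rik, Gpcpd1, Mbnl1 and Tmem9b, at 0.02 to 0.05, but Krt5 and Krt14 lay 0.55 from that mean, so it describes neither of them. Likeness over 3 points is a description and carries no test.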

How the data were processed

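Total RNA of 3 samples was pooled for each library, rRNA was removed, and stranded libraries were read from one end. The authors trimmed and filtered the reads, mapped them to GRCm38 (mm10 in the submitters' processing notes) with TopHat or HISAT2, assembled loci with Cufflinks and compared genotypes with Cuffdiff. The deposited tables give 1 FPKM value per genotype and locus, made by the authors, together with their own fold changes, test statistics, p-values and q-values, which were not used. The wound table does not separate its 2 libraries per genotype. Which of the injuries a table belongs to is known from its name alone, and the labels describe a keratinocyte isolation for every sample.

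Log2 ratios of JunB cKO over wild type were computed with Python 3.11.15, pandas 2.3.3 and numpy 2.4.6 after adding a pseudocount of 1 FPKM to both values, which understates differences of low genes such as Krt2. No test was possible with 1 value per genotype. Where a symbol had several loci, that with the larger summed FPKM was used, though each member had 1. The script was tested on simulated data. The value of 1 read was taken from the smallest values of receptor loci of 880 to 1000 bp. The rule for named genes covered the 8 members, Junb, and the highest and the lowest gene of each list with at least 10 FPKM. It also covered every listed keratin past 2-fold and the 5 nearest genes by pattern. Krt15, Krt6b in unperturbed skin, Krtdap after plucking and Gapdh were named after their values had been seen. Some genes that this rule names are not reported here. The members and lists were chosen with earlier results of these data known. Pseudocounts of 0.1 and 0.01, a limit of 1.5-fold, centring on the median of expressed loci, scaling to the upper quartile, sums over loci and minimum levels were the alternatives. Positions come from GENCODE M21 and promoter windows from RefSeq on GRCm38.p6.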

Additional observations from a re-analysis of the deposited data

Results flagged for a closer look

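Members whose difference between genotypes had opposite signs in a pair of tables, with at least 0.25 on the log2 scale in both, were taken up again. None of these contrasts between tables was tested, since each table has 1 value per genotype. For Krt14, the type I keratin of basal cells, the log2 ratio of cKO over wild type was -0.52 after plucking and 0.48 in wounds, a difference of 0.996. For Krt77 it was -0.59 in unperturbed skin and 0.26 after plucking, a difference of 0.849, and 0.26 after plucking and -0.59 in wounds, a difference of -0.849. Krt2, listed at 0 in cKO after plucking and in wounds, was not included.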

How the results depend on the processing

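No paired analysis was possible because the wound table holds 1 value per genotype although the labels number 2 libraries, so fits without a replicate or with a replicate block were not run. Krt1 and Krt10 stayed above 0 in all 3 tables under every setting run. At their levels, and with 1 locus each, the pseudocounts and the sums over loci could hardly move them. The result therefore does not stand in for a replicate check. In unperturbed skin, centring on the median of expressed loci turned the median of the 8 members from -0.03 to 0.14 and Krt14 from -0.12 to 0.0522, and scaling to the upper quartile turned them to 0.192 and 0.104. Relative to the other keratinocyte markers, an alternative chosen after seeing the data, Krt14 (0.271) and Krt80 (0.151) in unperturbed skin and Krt5 in wounds (0.128) changed sign. With a pseudocount of 0.1 or 0.01, Krt2, listed at 0 in cKO, became the 1 member at least 2-fold lower after plucking and in wounds, a call set by the pseudocount. With a limit of 1.5-fold, the members lower in cKO were 1, 1 and 2 in unperturbed, plucked and wounded skin, and those higher were 0, 2 and 1, Krt2 included. Among loci with at least 10 FPKM, a set without Krt2, 9.8%, 22.1% and 8.2% were as much lower. In the same order, 3.04%, 23% and 9.59% were as much higher. Centring or upper-quartile scaling with that limit, added after seeing the data, gave 3 higher and 0 lower in unperturbed skin and the same counts in the other tables. The share of loci on those scales was not computed. The shallower unperturbed cKO library limits low members there, chiefly Krt2.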
